A study of Homo sapiens with 4 samples.

Results

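Eph receptors and ephrins were followed in RNA sequencing of HCT116 cells, an established colorectal carcinoma line, through 9 genes chosen by name: the receptors EPHA1, EPHA2, EPHA4, EPHB2, EPHB3 and EPHB4 and the ligands EFNA1, EFNB1 and EFNB2. The tables held 58735 gene identifiers, of which 14523 reached a mean of at least 1 FPKM over the 4 libraries and were tested, and all 9 genes were among them. FPKM stands for fragments scaled to the length of the transcript and to the depth of the library, a level per length. The rule is the list of names itself, drawn up with earlier results of these data known. Cells had been transfected for 48 h with a control siRNA (2 libraries) or with siRNA against KIF26B (2 libraries), and the comparison addressed which genes depend on KIF26B in these cells. The study used a pair of siRNAs against KIF26B, and which of them went into each library is not stated. The headers of the KIF26B siRNA tables read K_KD1_2 and K_KD2 and do not say what the numbers stand for. The labels number the replicates but do not say that they came from separate cultures, so the P values measure only the spread between these libraries, which may be technical.

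Eph receptors are a large family of receptor tyrosine kinases that bind ephrins anchored in the membrane of a neighbouring cell, so signalling needs cell contact and can run into both cells. Ephrin-A ligands hang from a lipid anchor and mainly bind EphA receptors, whereas ephrin-B ligands span the membrane and mainly bind EphB receptors. In the intestine, EphB receptors and ephrin-B ligands form opposing gradients that keep cells in place along the crypt, and EPHB2 and EPHB3 are known Wnt target genes there. EPHA2 is abundant in many carcinoma cells and takes part in cell migration both with and without ligand.

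The targeted gene was measured first. KIF26B, which encodes an atypical kinesin, had 31 and 73 reads in control siRNA replicates 1 and 2 (0.110 and 0.205 FPKM). The library labelled KIF26B siRNA replicate 1 had 43 reads (0.140 FPKM) and that labelled KIF26B siRNA replicate 2 had 8 reads (0.0307 FPKM). Per unit of depth, KIF26B siRNA replicate 2 thus held 0.189 times the KIF26B reads of the pooled controls (95% exact interval 0.0793 to 0.386). KIF26B siRNA replicate 1 held 0.857 times (0.586 to 1.23), which is not distinguishable from the controls at this depth. The controls themselves differed beyond counting error, by a ratio of 1.87 for replicate 2 over replicate 1 (1.22 to 2.95), so the pooled controls are not a single level. KIF26B lay below the filter on low values, and in a limma fit without that filter its log2 difference was −0.09 (adjusted p = 0.775). At so low a level that scale leaves little room, and the difference was −0.52 with a pseudocount of 0.1 (limma, adjusted p = 0.704) and −1.13 on recovered reads (limma-voom, adjusted p = 0.498). The label of the first KIF26B siRNA library was therefore not borne out by this transcript, and the values of the 9 genes below are given for both libraries separately. Intervals of this kind treat reads as independent and cover counting error only.

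The depth by which the authors scaled each library lay between 18068934 and 24673739 fragments. Mitochondrial transcripts took 6.47% and 6.49% of recovered reads in the controls, 9.10% in KIF26B siRNA replicate 1 and 7.31% in KIF26B siRNA replicate 2. Of 10 colon epithelial markers, EPCAM lay at 77.0 to 98.6 FPKM and the list summed to 1623 to 1775 FPKM per library, while the differentiation markers KRT20, VIL1 and LGALS4 stayed at or below 0.507 FPKM. Of the 7 epithelial markers tested, 4 were below 0 and 3 above in log2 difference. KRT8 (−0.43) and KRT18 (−0.51), simple epithelial keratins, passed an unadjusted P below 0.05. The others did not, with CDH1 at −0.33, CDX2 at −0.10, KRT19 at 0.14, EPCAM at 0.08 and CLDN4 at 0.05. Markers of fibroblasts (8 genes), immune cells (6), endothelium (5 of 6 found) and neurons or glia (6) summed to 7.18 to 10.2, 1.80 to 4.56, 0.114 to 0.436 and 5.16 to 6.53 FPKM, with CD3E and EMCN at 0 in every library and COL1A2, DCN, LUM and PTPRC at or below 0.0278 FPKM. COL1A1 made up most of the fibroblast sum, at 4.74 to 8.69 FPKM. At an unadjusted P below 0.05, ACTA2 was higher after KIF26B siRNA (0.616 to 1.79 FPKM in the mean) and HLA-DRA (3.63 to 1.51) and MAP2 (2.74 to 1.53) were lower; the part of these genes in the results below was not tested.

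Promoter windows are shown for 3 genes on which the comparison turns: EPHA2, the most abundant receptor, and EPHB3 and EFNA1, which had the smallest P values among the 9 genes. Each window is the 250 bases before the annotated start of the gene in RefSeq (GRCh38.p14), on the strand of the gene. Capitals mark matches to short motifs that were searched on both strands: the AP-1 site (TGACTCA), the cAMP response element (CRE, TGACGTCA), the TEAD site (CATTCC), the TCF site (CTTTGAT or CTTTGAA), the hypoxia response core (ACGTG), the GC box (GGGCGG) and an ETS site (CCGGAAG).
EPHA2, chr1:16156070-16156319, minus strand: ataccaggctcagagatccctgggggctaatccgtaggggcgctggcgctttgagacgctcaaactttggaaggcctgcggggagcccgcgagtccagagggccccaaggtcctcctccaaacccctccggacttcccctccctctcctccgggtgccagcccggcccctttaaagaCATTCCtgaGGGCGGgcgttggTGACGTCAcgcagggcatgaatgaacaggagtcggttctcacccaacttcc
EPHB3, chr3:184561535-184561784, plus strand: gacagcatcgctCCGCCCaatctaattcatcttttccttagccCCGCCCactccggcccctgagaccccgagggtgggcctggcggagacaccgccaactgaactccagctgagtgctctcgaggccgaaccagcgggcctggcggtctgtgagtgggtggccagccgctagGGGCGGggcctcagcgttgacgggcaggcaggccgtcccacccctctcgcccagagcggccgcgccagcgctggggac
EFNA1, chr1:155127626-155127875, plus strand: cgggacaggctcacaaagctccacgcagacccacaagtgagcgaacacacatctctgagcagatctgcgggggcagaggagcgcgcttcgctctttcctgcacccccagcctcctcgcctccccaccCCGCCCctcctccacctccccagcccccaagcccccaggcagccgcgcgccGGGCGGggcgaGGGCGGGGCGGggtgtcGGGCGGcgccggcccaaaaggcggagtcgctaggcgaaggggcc

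In the EPHA2 window a CRE began 51 bases before the start, a GC box 64 bases and a TEAD site 73 bases before it. CRE letters occurred in 2.03% and TEAD letters in 14.3% of the 27305 genes with such a window, and EPHA2 was the only one of the 9 genes with either. The EPHB3 window held 3 GC boxes, 78, 207 and 238 bases before the start, and no TCF letters, which 7.24% of all genes had. The EFNA1 window held 5 GC boxes, of which those 61 and 56 bases before the start overlap by a base. GC boxes were present for 9 of 9 genes and for 46.2% of all genes, and the 3 windows were richer in G and C (63.2%, 70.0% and 73.2%) than the median window (58.0%). Hypoxia core letters occurred only before EPHA4 among the 9 genes (21.7% of all genes), and neither AP-1 letters (5.19%) nor ETS letters (10.2%) occurred before any of them. No factor binding was measured here, and these matches are descriptions of the letters alone.

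EPHA2 was by far the most abundant of the 9 genes. In control siRNA cells it averaged 128.8 ± 3.60 FPKM (SD, n = 2), followed by EPHB4 at 15.8 ± 0.968, EFNB1 at 15.6 ± 0.0333, EFNB2 at 12.7 ± 0.402 and EPHA1 at 7.08 ± 0.336 FPKM. The lower end held EFNA1 at 5.14 ± 0.111, EPHB3 at 4.84 ± 0.526, EPHB2 at 3.36 ± 0.462 and EPHA4 at 1.58 ± 0.0927 FPKM. The control libraries overlapped between EPHB4 and EFNB1 and between EFNA1 and EPHB3, and all other neighbours in this order were separate. After KIF26B siRNA, EFNB1 overlapped with EFNB2, EFNA1 with EPHA1, and EPHB3 with EPHB2, so EFNA1 had moved from beside EPHB3 to beside EPHA1. The reads behind these levels ranged from 124 for EPHA4 to 13481 for EPHA2 in a single library.

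The thresholds stated in the study (a log2 fold change beyond 1 at P below 0.05) were passed by 0 of the 9 genes in either direction, against 0.606% of all genes tested that were lower and 0.813% that were higher. At an unadjusted P below 0.05, 1 of the 9 genes was lower (EPHB3; 8.68% of all genes tested) and 1 was higher (EFNA1; 7.74%). With Benjamini-Hochberg adjustment over all genes tested, limma called 0 of the 14523 genes (0%), although 2385 of them had an unadjusted P below 0.05 and limma-voom on recovered reads gave 3052 such genes and also no adjusted call. Without KIF26B siRNA replicate 1, 1247 genes were lower and 1260 higher at an adjusted p below 0.05, EFNB1 and EFNA1 among them, in a fit that assumes the lone KIF26B siRNA library to vary as the controls do. The adjusted p of the 9 genes ranged from 0.273 to 0.963. Both KIF26B siRNA libraries lay below both controls for 4 of the 9 genes (EPHA2, EPHA4, EPHB3 and EFNB1; 27.8% of all genes tested) and above both controls for 1 (EFNA1; 24.9%), and the groups overlapped for the other 4. The median log2 difference of the 9 genes was −0.09, with 7 below 0 and 2 above, beside −0.01 over all genes tested, with 7490 below 0 and 7033 above. Differences are given as KIF26B siRNA minus control siRNA on the log2(FPKM + 1) scale, which understates changes of low genes. With 2 libraries per group an exact two-sided permutation test cannot go below 0.333, so only the fit across all genes was used.

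**Figure D1:**
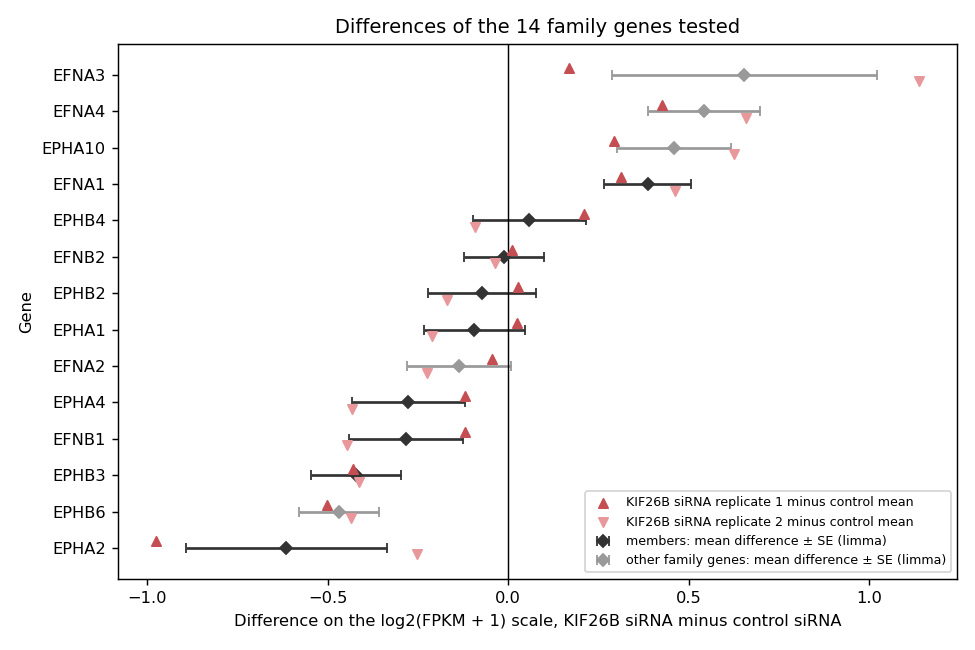
Difference from control siRNA on the log2(FPKM + 1) scale for the 14 Eph and ephrin genes tested, with diamonds and bars for the limma mean difference ± SE (black for the 9 genes, grey for the other 5) and triangles for each KIF26B siRNA library minus the control mean. EPHA2 has the lowest mean (−0.61) with its 2 libraries far apart (−0.97 and −0.25), whereas the 2 libraries of EPHB3 nearly coincide.

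Among the A-type receptors, EPHA2 was lower in both KIF26B siRNA libraries, but by very different amounts. EPHA2 (ENSG00000142627; chr1:16124337-16156069, minus strand) measured 126.3 and 131.4 FPKM in the controls, 65.1 in KIF26B siRNA replicate 1 and 107.9 in KIF26B siRNA replicate 2. The controls lay close together and above both KIF26B siRNA libraries, and the gap between the latter was wider than the gap between KIF26B siRNA replicate 2 and the controls. The group means were 128.8 ± 3.60 and 86.5 ± 30.2 FPKM (SD, n = 2 each). The limma difference was −0.61 (SE 0.28, adjusted p = 0.364). The mean thus rests on KIF26B siRNA replicate 1. Without that library the difference was −0.25, and without KIF26B siRNA replicate 2 it was −0.97. Each of these fits leaves 1 library in the KIF26B siRNA group, so only the difference is given. The fit of all 4 libraries did not reach an unadjusted P below 0.05. On recovered reads limma-voom gave −0.63 (adjusted p = 0.303, unadjusted P below 0.05).

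The reads of EPHA2 are numerous enough that counting error is small beside these differences. Per unit of depth, KIF26B siRNA replicate 1 held 0.504 times the EPHA2 reads of the pooled controls (95% exact interval 0.490 to 0.519) and KIF26B siRNA replicate 2 held 0.835 times (0.814 to 0.857). The KIF26B siRNA libraries differed from each other by a ratio of 1.66 (1.60 to 1.71), the controls by only 1.04 (1.01 to 1.07). The library with the lowest EPHA2 level was the one whose KIF26B reads were not distinguishable from the controls and whose mitochondrial share was highest. The part of either in the EPHA2 level was not tested. Since these are bulk libraries, fewer cells with EPHA2 and less EPHA2 RNA per cell cannot be told apart. EPHA2-AS1, annotated on the opposite strand across EPHA2, measured 1.52, 2.29, 1.09 and 0.918 FPKM in control siRNA 1 and 2 and KIF26B siRNA 1 and 2. Its recovered read numbers (54, 102, 42 and 30) share a common divisor, so the true reads may be fewer. Whether the counting used the strand is not given in the sources used here.

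The genes whose profile over the 4 libraries was nearest to that of EPHA2 (Euclidean distance of log2(FPKM + 1) minus the control mean) were SPAG5, TOP2A and FANCI, at distances of 0.0363, 0.0389 and 0.0423. TOP2A, for example, measured 48.2 and 49.3 FPKM in the controls and 23.8 and 40.3 after KIF26B siRNA. All of them had their lowest value in KIF26B siRNA replicate 1 and an intermediate value in KIF26B siRNA replicate 2. This order follows from their choice by nearness to EPHA2 in these same libraries and is not a separate result.

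EPHA1 (ENSG00000146904; chr7:143391129-143408856, minus strand), the receptor after which the family was named, did not separate the groups. It measured 6.85 and 7.32 FPKM in the controls and 7.22 and 5.98 FPKM in KIF26B siRNA replicates 1 and 2, so that the first KIF26B siRNA library lay between the controls. In limma the difference was −0.09 (SE 0.14, adjusted p = 0.762), and it changed sign to 0.02 without KIF26B siRNA replicate 2. EPHA1 shares its locus with ZYX on the opposite strand, which had 2238 to 3819 reads per library against 511 to 855 for EPHA1.

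EPHA4 (ENSG00000116106; chr2:221418027-221574202, minus strand), a receptor that binds ephrins of both classes, was the least expressed of the 9 genes. It measured 1.51 and 1.64 FPKM in the controls, 1.37 in KIF26B siRNA replicate 1 and 0.908 in KIF26B siRNA replicate 2, lower in both. The limma difference was −0.28 (SE 0.16, adjusted p = 0.439). Opposite to EPHA2, the second KIF26B siRNA library lay farther from the controls, at 0.574 times their reads per unit of depth (95% exact interval 0.468 to 0.699), while the first lay at 0.865 times (0.736 to 1.01). Without KIF26B siRNA replicate 1 the difference was −0.43, and without KIF26B siRNA replicate 2 it was −0.12, each with 1 KIF26B siRNA library left. With a pseudocount of 0.1 the difference of all 4 libraries was −0.46, and limma-voom on recovered reads gave −0.49, neither at an unadjusted P below 0.05.

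Among the B-type receptors, EPHB3 was lower after KIF26B siRNA and EPHB2 and EPHB4 were not separated. EPHB3 (ENSG00000182580; chr3:184561785-184582408, plus strand), one of the receptors that position cells in the crypt, measured 5.22 and 4.47 FPKM in the controls and 3.33 and 3.38 FPKM in KIF26B siRNA replicates 1 and 2. Both KIF26B siRNA libraries lay below both controls and almost coincided, while the controls differed more. The group means were 4.84 ± 0.526 and 3.35 ± 0.0402 FPKM (SD, n = 2 each). At a limma difference of −0.42 (SE 0.13, adjusted p = 0.273), EPHB3 passed an unadjusted P below 0.05 but not the adjustment. The ratios to the pooled controls were 0.693 (95% exact interval 0.609 to 0.787) and 0.705 (0.614 to 0.806) per unit of depth, beside a ratio between the controls of 0.857 (0.754 to 0.975). Without control siRNA replicate 1 the difference was −0.33 and without control siRNA replicate 2 it was −0.51. Leaving out KIF26B siRNA replicate 1 or 2 gave −0.41 or −0.43. Each of these fits leaves 1 library in a group, so only the difference is given.

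EPHB2 (ENSG00000133216; chr1:22710838-22921500, plus strand), the companion receptor of EPHB3 in the crypt, measured 3.03 and 3.68 FPKM in the controls and 3.42 and 2.86 FPKM after KIF26B siRNA. The ranges of the groups overlapped, and the controls alone differed by a ratio of 1.22 (95% exact interval 1.11 to 1.34). By limma the groups differed by −0.07 (SE 0.15, adjusted p = 0.832), with a sign that turned without control siRNA replicate 2 (0.04) or without KIF26B siRNA replicate 2 (0.03). EPHB2 and EPHB3 were thus not lowered alike in value, although the difference between the receptors was not tested.

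EPHB4 (ENSG00000196411; chr7:100802565-100827523, minus strand), the receptor of ephrin-B2 known from the separation of arteries and veins, measured 15.1 and 16.5 FPKM in the controls, 18.4 in KIF26B siRNA replicate 1 and 14.7 in KIF26B siRNA replicate 2. The KIF26B siRNA libraries lay on either side of the controls. Their ratios to the pooled controls, 1.16 (95% exact interval 1.11 to 1.22) and 0.928 (0.877 to 0.981), exceeded counting error in opposite directions. The controls also differed from each other beyond counting error, by a ratio of 1.09 (1.03 to 1.16). On average limma gave 0.06 (SE 0.16, adjusted p = 0.871), and it was −0.09 without KIF26B siRNA replicate 1 and −6.46e-05 without control siRNA replicate 1. SLC12A9 lies across EPHB4 on the opposite strand and measured 5.75, 5.81, 7.01 and 5.33 FPKM in the same order of libraries.

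Among the ligands, EFNA1 was higher in both KIF26B siRNA libraries, EFNB1 was lower in both and EFNB2 stayed level. EFNA1 (ENSG00000169242; chr1:155127876-155134899, plus strand) encodes ephrin-A1, a ligand that binds EPHA2 tightly. It measured 5.22 and 5.06 FPKM in the controls, 6.62 in KIF26B siRNA replicate 1 and 7.45 in KIF26B siRNA replicate 2. Both KIF26B siRNA libraries lay above both controls, and the controls nearly coincided. The group means were 5.14 ± 0.111 and 7.04 ± 0.591 FPKM (SD, n = 2 each). With a limma difference of 0.39 (SE 0.12, adjusted p = 0.277), EFNA1 passed an unadjusted P below 0.05 but not the adjustment. The ratios to the pooled controls were 1.29 (95% exact interval 1.13 to 1.47) and 1.45 (1.27 to 1.66) per unit of depth. Without control siRNA replicate 1 or 2 the difference was 0.41 or 0.37, and without KIF26B siRNA replicate 1 or 2 it was 0.46 or 0.31. Each of these fits leaves 1 library in a group, so only the difference is given.

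EFNA1 was thus higher in the same libraries in which its receptor EPHA2 was lower, but in opposite order: EPHA2 was lowest in KIF26B siRNA replicate 1 and EFNA1 highest in KIF26B siRNA replicate 2. The 3 genes with profiles nearest to EFNA1 were GALNT11, MAPK6 and IMMP2L, at distances of 0.00791, 0.0166 and 0.0202. GALNT11 measured 3.51 and 3.40 FPKM in the controls and 4.51 and 5.11 FPKM after KIF26B siRNA.

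EFNB1 (ENSG00000090776; chrX:68829021-68842160, plus strand) encodes ephrin-B1, a transmembrane ligand of EphB receptors. It measured 15.7 and 15.6 FPKM in the controls, 14.3 in KIF26B siRNA replicate 1 and 11.2 in KIF26B siRNA replicate 2. The controls agreed closely and lay above both KIF26B siRNA libraries, of which the second was farther away. The limma difference was −0.28 (SE 0.16, adjusted p = 0.436). The ratios to the pooled controls were 0.916 (95% exact interval 0.850 to 0.987) and 0.717 (0.657 to 0.781). Without KIF26B siRNA replicate 1 the difference was −0.45, and without KIF26B siRNA replicate 2 it was −0.12, each with 1 KIF26B siRNA library left.

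EFNB2 (ENSG00000125266; chr13:106489745-106535662, minus strand), which encodes ephrin-B2, the partner of EPHB4, was the steadiest of the 9 genes. It measured 13.0 and 12.4 FPKM in the controls and 12.8 and 12.4 FPKM after KIF26B siRNA. All 4 values lay within a narrow range and the groups overlapped. The ratios to the pooled controls were 1.01 (95% exact interval 0.947 to 1.08) and 0.975 (0.909 to 1.05). By limma the difference came to −0.01 (SE 0.11, adjusted p = 0.963), with a sign that turned without control siRNA replicate 1 (0.02) or KIF26B siRNA replicate 2 (0.01).

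Library by library, the interval of the ratio to the pooled controls left out 1 for 5 of 9 genes in KIF26B siRNA replicate 1 (64.8% of all genes tested) and for 8 of 9 genes in KIF26B siRNA replicate 2 (68.0%). The same held for 4 of 9 genes between the controls (19.7%), so spread beyond counting error was present within a group as well. The KIF26B siRNA libraries differed from each other beyond counting error for 6 of 9 genes (64.3%), all except EPHB3, EFNA1 and EFNB2. In the comparisons with a KIF26B siRNA library most genes tested had intervals that left out 1, so those counts say nothing particular about the 9 genes. Between the controls most genes did not, and the larger share among the 9 was not tested. For some genes outside the 9 the recovered reads may be multiples of the true ones, which would make the shares over all genes too high. Of the 6 genes that differed between the KIF26B siRNA libraries, EPHA2 was higher in the second and the other 5 were lower.

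The rest of the family was read from a list of all 22 human Eph and ephrin genes, 14 receptors and 8 ligands. Of the 13 genes outside the 9, 5 were tested. EPHA3, EPHA5, EPHA6 and EPHA7 had 0 reads in every library, and EPHA8, EPHB1, EFNA5 and EFNB3 lay below the filter. At an unadjusted P below 0.05, 1 of the 5 was lower (EPHB6; 8.68% of all genes tested) and 2 were higher (EPHA10 and EFNA4; 7.74%), none with a log2 fold change beyond 1 and none after adjustment.

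EPHB6, a receptor whose kinase domain is inactive, measured 4.45 and 4.43 FPKM in the controls and 2.84 and 3.02 FPKM after KIF26B siRNA (limma difference −0.47, SE 0.11, adjusted p = 0.248). Like EPHB3, it had KIF26B siRNA libraries that nearly coincided, at 0.640 and 0.681 times the pooled controls. EPHA10, also a receptor without kinase activity, measured 2.25, 2.27, 2.99 and 4.03 FPKM in the same order of libraries (limma difference 0.46, SE 0.16, adjusted p = 0.297).

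EFNA4 and EFNA3 lie beside EFNA1 on chromosome 1, on the same strand. EFNA4 spans chr1:155063740-155069553 and EFNA3 chr1:155078837-155087538, with 9284 bases between them and 40338 bases from EFNA3 to EFNA1. EFNA4, an ephrin-A ligand, measured 7.87 and 6.61 FPKM in the controls and 10.0 and 12.0 FPKM after KIF26B siRNA (limma difference 0.54, SE 0.16, adjusted p = 0.271). EFNA3, named here after its values were seen, measured 7.79, 9.13, 9.61 and 19.8 FPKM, with 2.06 times as many reads per unit of depth in the second KIF26B siRNA library as in the first (95% exact interval 1.81 to 2.33). Its limma difference was 0.65 (SE 0.37, adjusted p = 0.437). In all 3 neighbouring ligand genes both KIF26B siRNA libraries lay above both controls, as was so for 24.9% of all genes tested. For EFNA3, however, KIF26B siRNA replicate 1 held 1.13 times the reads of the pooled controls (95% exact interval 0.993 to 1.28). That is not distinguishable from the controls. A read-through transcript of EFNA4 and EFNA3 had at most 4 reads in a library. EFNA2, an ephrin-A gene elsewhere in the genome and also named after its values were seen, measured 8.54, 7.26, 7.60 and 6.59 FPKM (limma difference −0.14, adjusted p = 0.669).

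The composition of the family differed between the KIF26B siRNA libraries. EPHA2 made up 76.6% and 76.4% of the summed receptor FPKM in the controls, 62.1% in KIF26B siRNA replicate 1 and 75.5% in KIF26B siRNA replicate 2. EPHB4 made up 9.17%, 9.59%, 17.6% and 10.3% in the same order. The receptor sum itself was 164.9, 171.8, 104.8 and 142.9 FPKM, whereas the B-type receptors alone summed to 27.8, 29.1, 28.0 and 24.0 FPKM. The lower receptor sum in KIF26B siRNA replicate 1 was therefore almost all EPHA2.

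On the ligand side, the A-type share rested near 50% in the controls and was higher after KIF26B siRNA. It was 50.8% and 50.2% in the controls, 55.5% in KIF26B siRNA replicate 1 and 66.0% in KIF26B siRNA replicate 2. Ephrin-A transcripts summed to 29.7, 28.4, 34.0 and 45.9 FPKM and ephrin-B transcripts to 28.8, 28.2, 27.2 and 23.6 FPKM. EFNB1 took 26.8%, 27.6%, 23.4% and 16.1% of the ligand sum, and EFNA1 took 8.91%, 8.95%, 10.8% and 10.7%. The A-type ligands did not move alike. EFNA3 took 13.3%, 16.1%, 15.7% and 28.4%, so its high share was confined to KIF26B siRNA replicate 2. EFNA4 took 13.4%, 11.7%, 16.4% and 17.2%, whereas EFNA2 took 14.6%, 12.8%, 12.4% and 9.48%. These shares are descriptions of 4 libraries and were not tested.

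Genes that act with Eph receptors inside the cell passed an unadjusted P below 0.05 in shares near those of all genes tested. Of 46 signalling partners listed, 41 were tested, 27 below 0 and 14 above, with 3 lower and 4 higher at an unadjusted P below 0.05 (8.68% and 7.74% of all genes tested), 0 past the thresholds of the study and a median log2 difference of −0.07. RAC1, the GTPase that drives lamellipodia, measured 48.1 and 48.7 FPKM in the controls and 75.7 and 79.1 FPKM after KIF26B siRNA, with groups well apart (limma difference 0.67, SE 0.11, adjusted p = 0.242). LIMK1, a kinase that acts on cofilin, was at 0.53, PTPN11, the phosphatase SHP2, at 0.40 and GRB7, an adaptor, at 0.64, all higher at an unadjusted P below 0.05. CBL, a ubiquitin ligase that takes activated receptors out of circulation, was at −0.39, GRB2, an adaptor to Ras, at −0.34 and ITSN1, an exchange factor coupled to EphB receptors, at −0.32, all lower. ADAM10, the protease that cleaves ephrins, measured 12.0, 12.2, 13.5 and 9.39 FPKM, with overlapping groups. All 8 were picked for naming with their values in view.

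Of 15 Wnt target genes of the crypt, 10 were tested, with 1 lower and 1 higher at an unadjusted P below 0.05 (8.68% and 7.74% of all genes tested) and a median of −0.12. SP5, a Wnt-induced transcription factor, measured 1.66, 1.69, 1.11 and 0.672 FPKM (limma difference −0.51, adjusted p = 0.281). MYC measured 78.5 FPKM in both controls and 146.1 and 157.9 FPKM after KIF26B siRNA (limma difference 0.94, SE 0.11, adjusted p = 0.242). AXIN2, a feedback inhibitor of Wnt signalling, measured 4.27, 3.99, 3.70 and 1.76 FPKM (limma adjusted p = 0.448). EPHB3, itself a Wnt target gene, thus stood beside listed genes that lay in both directions. SP5, MYC and AXIN2 were picked for naming with their values in view.

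Of 16 genes that respond to ERK, the kinase downstream of Ras to which Eph receptors couple, 16 were tested, with 4 lower and 1 higher at an unadjusted P below 0.05 (8.68% and 7.74% of all genes tested), 14 below 0 in log2 difference (7490 of the 14523 genes tested) and a median of −0.31 (−0.01 over all genes tested). The list was not tested as a set. CCND1, which encodes cyclin D1, was the only one past the thresholds of the study. It measured 358.0 and 361.1 FPKM in the controls, 106.8 in KIF26B siRNA replicate 1 and 187.0 in KIF26B siRNA replicate 2 (limma difference −1.34, SE 0.30, adjusted p = 0.247). CCND1 was lowest in the first KIF26B siRNA library, as EPHA2 was, but the list did not share this order. DUSP5 was also lowest in the first (93.4 and 210.3 FPKM in the first and second), as were ETV4, ETV5, FOSL1 and PHLDA1. DUSP6 (30.3 and 21.2), SPRY4 (25.1 and 15.7) and EGR1 (79.3 and 18.5) were lowest in the second. The same held for SPRY1, SPRY2, SPRED1, SPRED2, FOS and IER3, while DUSP4 was lowest in a control. SPRY1 (−0.56) and SPRED2 (−0.43), both inhibitors of the pathway, and the transcription factor ETV5 (−0.58) were the other lower genes, and the phosphatase DUSP4 (0.38) was the higher one, all named after their values were seen.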

How the data were processed

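RNA of HCT116 cells was profiled 48 h after transfection with control siRNA (2 libraries) or KIF26B siRNA (2 libraries). Groups and replicate numbers came from the sample labels. According to the study's methods, the authors purified poly(A) RNA, sequenced it paired-end, aligned reads to hg19 with HISAT2 and tested with DESeq2. The submitters' processing notes name HISAT2 2.0.5, featureCounts 1.5.0-p3 and hg38. Each deposited table holds 1 FPKM per gene, as made by the authors, and no counts. The unit was read from the values, and the tables carry no coordinates.

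Symbols came from GENCODE for GRCh37 (56513 of 58735 identifiers had one). Positions and promoter windows came from RefSeq (GRCh38.p14), whose tables held all 9 genes. Whole read numbers were found for 34638 of the 34638 identifiers above 0, at a gene length that makes all 4 values whole within 0.01 reads. They summed to 1.05 to 1.12 times the authors' divisors, and the length equalled the annotated one for 51.9% of identifiers. For some genes they may therefore be multiples of the true reads, as for CDC42 (245, 245, 168 and 315), whose numbers share a divisor. The read numbers of 9 of the 9 genes have no common divisor. Multiples would narrow exact intervals and enter limma-voom and the mitochondrial share. For the 9 genes the recovered lengths were 1.00 to 1.17 times the annotated ones. Ratios of read rates used these reads with exact binomial intervals at 95%. FPKM, not counts, were tested with limma 3.58.1 (R 4.3.3) on log2(FPKM + 1) without covariates, for genes averaging 1 FPKM or more, two-sided, with moderated variances and p values adjusted by Benjamini-Hochberg across the genes in the fit. Other computation used Python 3.11.15 with scipy 1.17.1. The functions were tested on simulated data. Read depth limits the precision of low genes such as EPHA4 and KIF26B.

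By rule the text names the 9 genes, KIF26B, other family genes past an unadjusted P of 0.05, listed genes past the thresholds, and the 3 genes nearest in profile to the members with the largest fall and rise. Other genes, such as EFNA3, EFNA2, RAC1, MYC and the cell type markers, were picked with their values in view. The members and lists were chosen with earlier results of these data known, and the motifs after the promoter sequences had been seen. Alternatives were a replicate block, 2 other filters, a pseudocount of 0.1, a variance trend, 2 other scalings, limma-voom on recovered reads (at least 10 reads in 2 libraries) and leaving out each library. No protein sequences were used here.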

Additional observations from a re-analysis of the deposited data

How the results depend on the processing

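Leaving out a single library turned the sign of members whose groups overlap: the log2 difference ranged from −0.042 to 0.017 for EFNB2 (0.017 without control siRNA replicate 1), from −0.21 to 0.025 for EPHA1 (0.025 without KIF26B siRNA replicate 2), from −0.18 to 0.037 for EPHB2 (0.037 without control siRNA replicate 2, 0.026 without KIF26B siRNA replicate 2) and from −0.093 to 0.21 for EPHB4 (−0.093 without KIF26B siRNA replicate 1). With 1 library left out, 0 to 4 members were lower and 0 to 1 higher at an unadjusted P below 0.05 (1 and 1 with all libraries), 234 to 3435 genes were lower and 265 to 3326 higher at that P (1261 and 1124), and 123 to 223 were lower and 156 to 334 higher past the thresholds of the study (88 and 118). After adjustment, 0 to 1247 genes were lower and 0 to 1260 higher, the upper ends without KIF26B siRNA replicate 1, where the lone KIF26B siRNA library is assumed to vary as the controls do. All other settings kept the direction of every member, in 71 comparisons of which 68 also kept their side of the threshold on P.

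The replicate block, fitted with limma, left 0 members lower and 0 higher at an unadjusted P below 0.05 (adjusted p = 0.441 for EPHB3 and 0.454 for EFNA1). Of all 14523 genes in that fit, 861 were lower and 864 higher at that P, beside 1261 and 1124 without the block. Deviations of same-numbered libraries correlated at −0.003 over only 2 pairs, so the numbers are not shown to pair the libraries.

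Past the thresholds of the study, 52 genes were lower and 69 higher when at least 1 FPKM was required in every library. The counts were 203 and 217 with a pseudocount of 0.1 and 384 and 379 with limma-voom. At an unadjusted P below 0.05, limma-voom gave 2 members lower (EPHB3 and EPHA2), beside 1690 of all 18650 genes in that fit. Without a filter, 2186 genes were lower and 2192 higher at an unadjusted P below 0.05. The causes were not tested. The counts of groups that do not overlap, under 2 scalings added after the data were seen, and KIF26B, whose alternatives were added likewise, kept direction and call; the log2 difference of KIF26B ranged from −0.02 to −0.17 with 1 library left out and reached −1.13 in limma-voom and −0.52 at the lower pseudocount. EPHA4 and KIF26B could not be fitted under the filter in every library, since both fall below it. The 2 libraries per group limit every P value here.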
